A study of Mus musculus with 8 samples.

Results

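*Lmod2*, *Lmod3*, *Tmod1*, *Fhod1*, *Fhod3*, *Cfl1*, *Cfl2*, *Wdr1* and *Cap2* encode proteins that build the actin thin filament of the sarcomere, fix its length or take it apart again. These 9 genes were chosen by name for what they do, with earlier results of these data known. Every non-control probe whose accession belongs to one of them was kept, which gave 11 of the 41174 probes on the array. *Cfl1* and *Cap2* have 2 probes each and the other 7 genes have 1. The arrays measured total RNA from the whole hearts of 4 wild-type (WT) and 4 SIRT1 knockout (SIRT1 KO) mouse embryos at E18.5, shortly before birth, with 1 heart on each array. Both genotypes were C57BL/6 embryos (C57BL/6J in the study's methods) of heterozygous SIRT1 parents kept on chow and given no treatment, and the study took hearts of male and female embryos. The knockout is a whole-body germ-line one, so the gene of SIRT1, an NAD+-dependent deacetylase, was deleted in every cell type and throughout development, and no result below can be assigned to one cell type. The arrays were made to ask which transcripts differ between the genotypes at this stage.

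A thin filament is a polar polymer of actin whose barbed end is held in the Z-line and whose pointed end reaches towards the middle of the sarcomere. Leiomodins nucleate and lengthen it at the pointed end, tropomodulins cap that end and stop growth, and formins promote assembly from the barbed end. Cofilins cut and disassemble filaments, with WDR1 and the cyclase-associated proteins as partners that speed the cut and recycle the monomers, and in striated muscle this turnover keeps filament length even.

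Levels below are log2 signals minus the 75th percentile of the same array, so a level of 0 is the signal of a fairly bright probe. Levels of different probes cannot be compared, because probes differ in how strongly they bind. The fold changes are log2 differences, SIRT1 KO minus WT, fitted with limma, and a probe was called where its adjusted p was under 0.05. Each genotype was hybridized on a slide of its own and scanned on a day of its own, and these cannot be told apart from the genotype. In intensity units the 75th percentile was 939 to 1033 for WT and 777 to 906 for SIRT1 KO, and 59.5% to 64.9% of the probes of an array exceeded the background clearly. All 8 cardiomyocyte markers were tested and none was called. Their summed linear level was 1239 to 1349 in WT and 1389 to 1611 in SIRT1 KO hearts, in units of the array's 75th percentile. Of 5 liver markers 4 were tested and none was called, but their summed level ran from 4.03 to 13.3 in WT and from 4.91 to 59.7 in SIRT1 KO hearts, highest in SIRT1 KO 1. No lung or thymus marker was bright enough to be tested. The brighter *Sirt1* probe was higher in the SIRT1 KO hearts (log2 fold change 0.54, adjusted p = 0.0323 from limma) and the other had a fold change of -0.11 (adjusted p = 0.589). Whether either probe lies in the deleted part is not given in the sources used here, so neither checks the labels, and SIRT1 KO stands below for the hearts labelled so.

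None of the 11 probes of the 9 genes differed between genotypes past the threshold. All 11 were well above background on all 8 arrays, with signals between 473 and 42939 intensity units. Of all 25616 probes tested, 4.88% were called, 1017 higher and 233 lower in the SIRT1 KO hearts. At an unadjusted p under 0.05 the count was 0 of 11 as well, against 21.5% of all probes, and in 0 of 11 did the levels of the genotypes not overlap, against 13.7% of all probes. The unadjusted count was 4 of 11 without SIRT1 KO 3 and at most 1 without any other heart, 4 after median scaling and 5 with no scaling. Calls over all probes (1250) rose too, to 1825 without SIRT1 KO 3, 1784 after median scaling and 6347 with no scaling. The share of all probes at an unadjusted p under 0.05 is not given for these fits. The fold changes ran from -0.21 (*Cfl2*) to 0.18 (*Fhod1*), with 4 probes higher and 7 lower and a median of -0.02, beside a median of 0.01 over all probes tested. Adjusted p-values lay between 0.267 and 0.961 (limma), and the smallest exact permutation p, two-sided, was 0.0857, where 0.0286 is the smallest that 4 against 4 hearts can give.

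**Figure D1:**
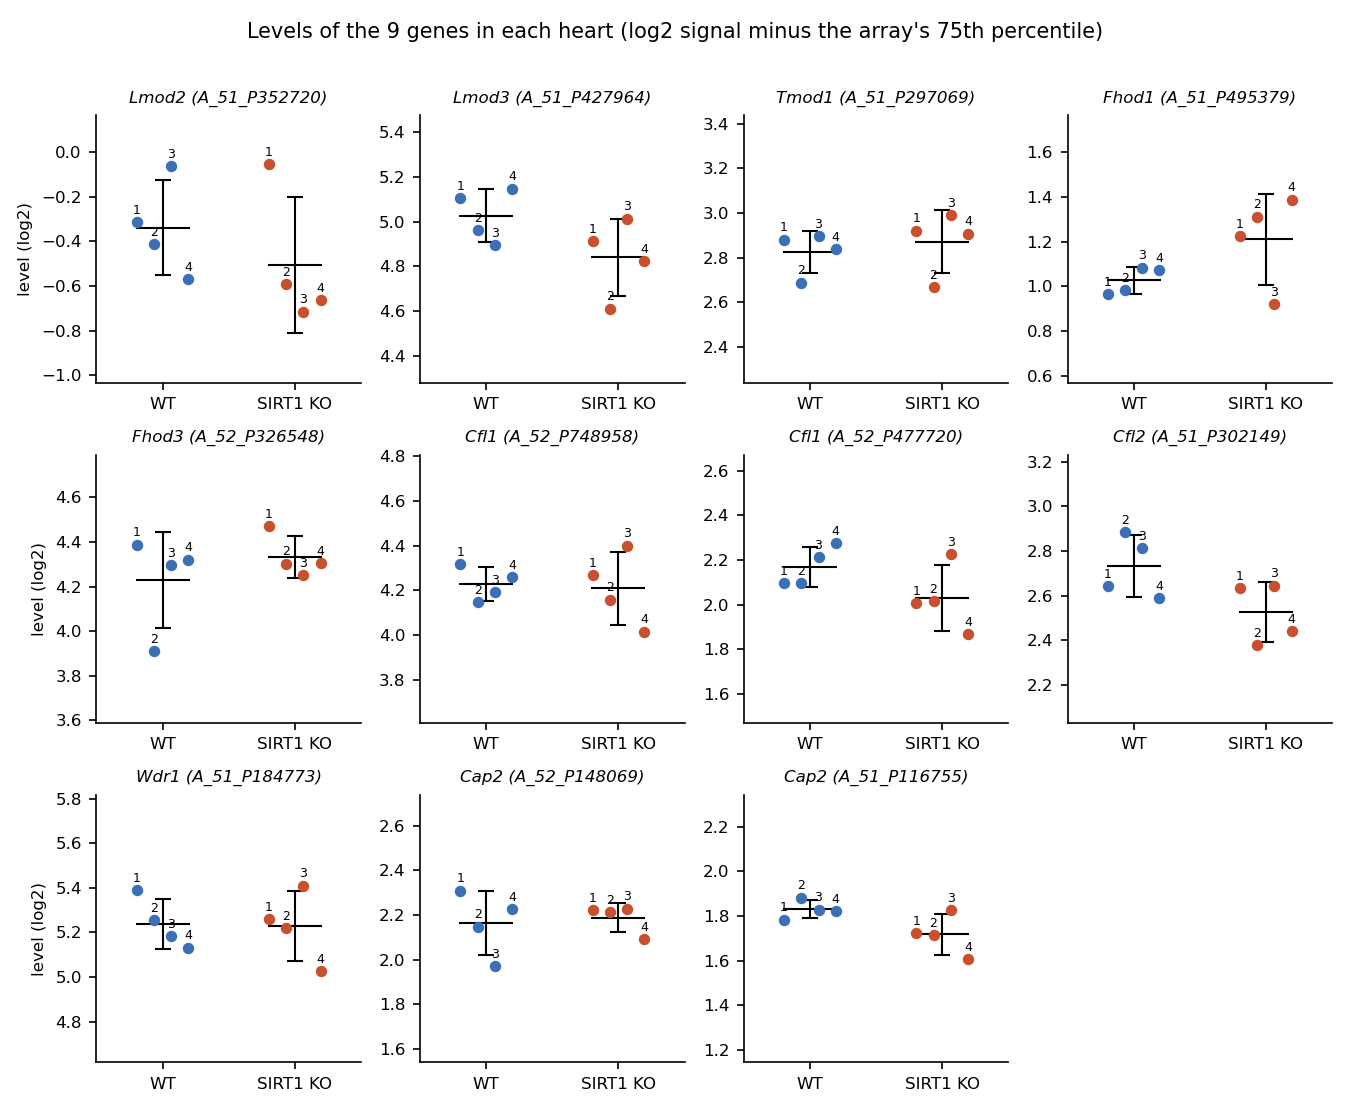
Level of each of the 11 probes in the 4 WT (blue) and 4 SIRT1 KO (red) hearts, as log2 signal minus the array's 75th percentile. Numbers are replicate numbers, bars are mean ± SD (n = 4), and every panel spans the same log2 range. The genotypes overlap in all 11 panels.

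Since a missed threshold does not show that a gene was equal in both genotypes, the size of change that the scatter between hearts leaves possible was read from the intervals. A shift between slides or scan days is not in them. The 95% intervals of all 11 probes lay within 1.5-fold in either direction. The count was 10 of 11 after scaling to the median, 8 of 11 with no scaling, 10 of 11 with the methods' analysis of variance, and 10 or 11 with any 1 heart left out. Their outer limits were 0.690 times the WT level for *Lmod2* and 1.34 times for *Fhod1*. In a bulk heart, fewer cells of a type and less RNA per cell cannot be told apart, and this holds for the cardiac members and for the widely expressed *Cfl1* and *Wdr1* alike.

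Among the pointed-end genes, both leiomodins had lower means in SIRT1 KO and the tropomodulin did not. *Lmod3*, a leiomodin of striated muscle that nucleates actin filaments, had levels of 5.10, 4.96, 4.89 and 5.15 in WT hearts 1 to 4 and of 4.91, 4.61, 5.01 and 4.82 in SIRT1 KO hearts 1 to 4. SIRT1 KO 2 was lowest of the 8, and SIRT1 KO 1 and 3 lay inside the WT range. This gave a log2 fold change of -0.19 (95% interval -0.42 to 0.05, adjusted p = 0.334 from limma), and of -0.11 without SIRT1 KO 2. *Lmod2*, the cardiac leiomodin that elongates thin filaments, had levels of -0.31, -0.41, -0.06 and -0.57 in WT and of -0.05, -0.59, -0.72 and -0.66 in SIRT1 KO. SIRT1 KO 1 was the highest of all 8 hearts here and the other 3 SIRT1 KO hearts were the lowest. That split gave *Lmod2* the widest scatter of the members, a pooled SD of 0.26 that was larger than in 82.3% of all probes. Its log2 fold change was -0.17 (95% interval -0.54 to 0.20, adjusted p = 0.590). Without SIRT1 KO 1 it was -0.32 with an adjusted p of 0.238 from limma, and without WT 3 it was -0.07.

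*Tmod1*, the tropomodulin that caps pointed ends in heart, was at 2.88, 2.69, 2.90 and 2.84 in WT and at 2.92, 2.67, 2.99 and 2.91 in SIRT1 KO. The heart with replicate number 2 was the lowest in each genotype, and the ranges nearly coincided. Its log2 fold change was 0.05 (95% interval -0.16 to 0.25, adjusted p = 0.811 from limma).

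Both FHOD formins had higher means in SIRT1 KO. *Fhod1*, a formin that bundles and caps actin and is found in many cell types, was at 0.97, 0.98, 1.08 and 1.07 in WT and at 1.22, 1.31, 0.92 and 1.39 in SIRT1 KO. Of the SIRT1 KO hearts 1, 2 and 4 were above every WT heart, and SIRT1 KO 3 was below every one. The log2 fold change was 0.18 (95% interval -0.05 to 0.42, adjusted p = 0.346 from limma, exact permutation p = 0.171). Without SIRT1 KO 3 it was 0.28 with an adjusted p of 0.0657, the smallest adjusted p of any member with 1 heart left out. *Fhod3*, the formin that cardiomyocytes need to assemble and maintain thin filaments, was at 4.39, 3.91, 4.30 and 4.32 in WT and at 4.47, 4.30, 4.25 and 4.30 in SIRT1 KO. WT 2 stood lowest, and the other 7 hearts lay close together. The log2 fold change of 0.10 (95% interval -0.15 to 0.36, adjusted p = 0.631) became -0.0018 without WT 2.

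Of the disassembly genes, *Cfl2*, the muscle cofilin that severs filaments and trims thin-filament length, had the largest fitted fold change of all 9. It was at 2.64, 2.88, 2.81 and 2.59 in WT and at 2.63, 2.38, 2.65 and 2.44 in SIRT1 KO. SIRT1 KO 2 and 4 were below every WT heart, whereas SIRT1 KO 1 and 3 lay among the WT values. The log2 fold change was -0.21 (SE 0.10, 95% interval -0.43 to 0.02, adjusted p = 0.267 from limma, exact permutation p = 0.143), and it stayed between -0.25 and -0.16 with any 1 heart left out.

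*Cfl1*, the cofilin of non-muscle cells, gave a fold change near 0 on its brighter probe (A_52_P748958). The levels were 4.32, 4.15, 4.19 and 4.26 in WT and 4.27, 4.16, 4.40 and 4.01 in SIRT1 KO, so the SIRT1 KO hearts held both the highest and the lowest value. The fitted change was -0.02 in log2 (95% interval -0.23 to 0.20, adjusted p = 0.931). The other probe (A_52_P477720) had levels of 2.10, 2.09, 2.21 and 2.28 in WT and of 2.0, 2.02, 2.23 and 1.87 in SIRT1 KO. Its fold change was -0.14 in log2 (adjusted p = 0.409, limma), and ran from -0.21 (without SIRT1 KO 3) to -0.09 (without SIRT1 KO 4) with 1 heart left out. Both *Cfl1* probes placed SIRT1 KO 3 highest and SIRT1 KO 4 lowest among the knockouts.

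*Wdr1*, the cofactor also known as AIP1 that helps cofilin break filaments, was at 5.39, 5.26, 5.18 and 5.13 in WT and at 5.26, 5.22, 5.41 and 5.03 in SIRT1 KO. As on both *Cfl1* probes, SIRT1 KO 3 was highest and SIRT1 KO 4 lowest among the knockouts. Between genotypes it changed by -0.01 in log2 (95% interval -0.23 to 0.21, adjusted p = 0.961 from limma). Over the 8 hearts the Pearson r of *Wdr1* and *Cfl1* was 0.83, the highest of any pair of members, while the lowest was -0.73 for *Lmod3* and *Fhod1*; these r describe 8 arrays that share a scaling and carry no test.

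*Cap2*, the cyclase-associated protein of striated muscle that strips actin from cofilin and recharges it, differed little on either probe. The brighter one (A_52_P148069) was at 2.31, 2.15, 1.97 and 2.23 in WT and at 2.22, 2.21, 2.23 and 2.09 in SIRT1 KO, a log2 fold change of 0.03 (95% interval -0.17 to 0.22, adjusted p = 0.894). The other (A_51_P116755) was at 1.78, 1.88, 1.83 and 1.82 in WT and at 1.72, 1.72, 1.83 and 1.61 in SIRT1 KO. On that probe 3 SIRT1 KO hearts were below all WT hearts and SIRT1 KO 3 was among them. The log2 fold change was -0.11 (95% interval -0.27 to 0.05, adjusted p = 0.399 from limma, exact permutation p = 0.0857). The probes thus gave opposite signs, and their intervals overlapped.

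**Figure D2:**
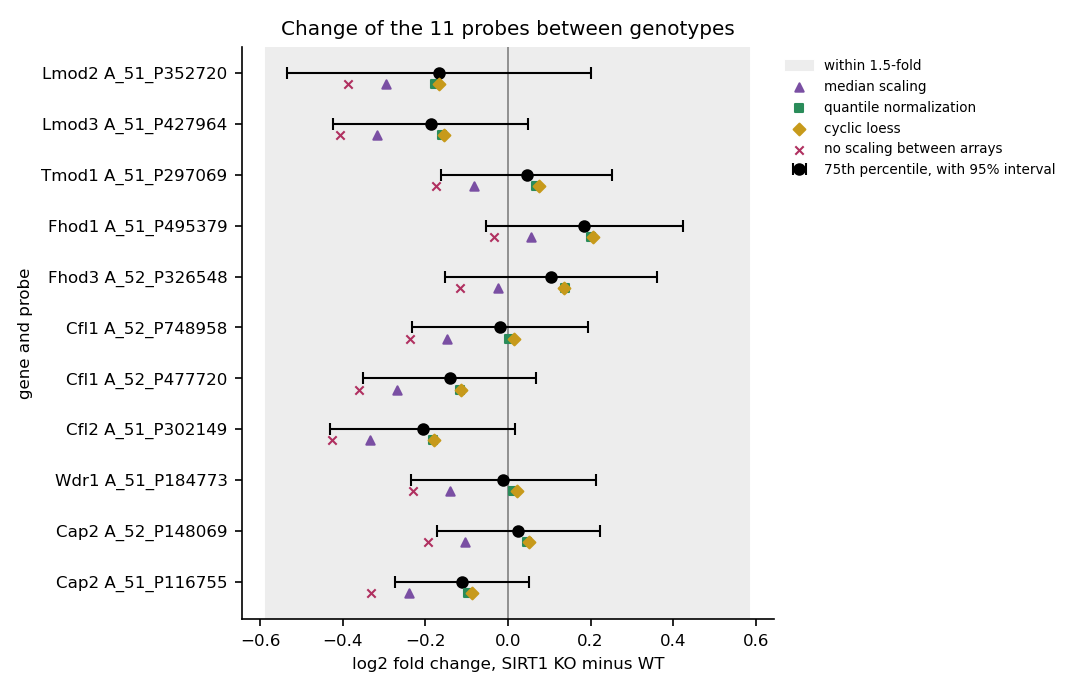
Log2 fold change (SIRT1 KO minus WT) of the 11 probes. Black points with bars are the limma estimate and its 95% interval after scaling to the 75th percentile, coloured marks give the estimate under 4 other ways of scaling, and the grey band is 1.5-fold either way. All black bars lie in the band, and the marks without scaling sit furthest left, between -0.43 and -0.03.

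The sign of these small fold changes followed the scaling. After the 75th percentile 4 genes were higher and 5 lower on their brightest probe, after quantile normalization or cyclic loess 6 were higher and 3 lower, after median scaling 1 was higher and 8 lower, and with no scaling all 9 were lower. Median scaling also moved the median of all probes to -0.12 and leaving out the scaling moved it to -0.21, shifts that every probe shares. The members' median lay 0.03 below that of all probes after the 75th percentile, 0.16 below it with another background correction (normexp), and 0.03 above it after quantile normalization and 0.02 after cyclic loess. No member probe was called after any of these 4 scalings, and 4 were called with no scaling. In that fit 6347 of all 25616 probes were called, beside 1250 after the 75th percentile. On the brightest probes, *Lmod2*, *Lmod3* and *Cfl2* kept a negative fold change in every one of these fits and with each heart left out, and *Fhod1* kept a positive one except with no scaling. The other 5 genes changed sign between fits. Of these 3, *Lmod3* and *Cfl2* were called with no scaling and none after any scaling.

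Scatter between hearts of one genotype was ordinary for these genes. The pooled SD ran from 0.070 on the dimmer *Cap2* probe to 0.26 for *Lmod2*, around a median of 0.15 for all probes. SIRT1 KO 1 was above its genotype's mean for 9 of 9 members, and SIRT1 KO 2 and SIRT1 KO 4 for 2 of 9 each. SIRT1 KO 1 also carried the highest summed liver marker level (59.7, against 29.4 in SIRT1 KO 4, 7.58 in SIRT1 KO 2 and 4.91 in SIRT1 KO 3), and the part of those transcripts in the member levels was not tested. Among WT hearts, WT 1 was above the WT mean for 7 of 9 members and WT 2 for 2 of 9.

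Differences taken between genes on the same array do not depend on the scaling by the 75th percentile, so 5 pairs of related genes were compared in this way. The question was whether the balance between a pair shifted: between the muscle and the other cofilin, the leiomodins, a leiomodin and a tropomodulin, the FHOD formins, and *Cap2* and its widely expressed relative *Cap1*. None shifted past the exact permutation test. The *Cfl2* minus *Cfl1* difference changed by -0.19 (95% interval -0.47 to 0.09, exact permutation p = 0.20, 0.476 adjusted over the 5 pairs). With 1 heart left out that change ran from -0.25 (without WT 1) to -0.11 (without WT 2). *Lmod2* minus *Tmod1* changed by -0.21 (95% interval -0.67 to 0.25, exact permutation p = 0.286), with SIRT1 KO 3 and 4 below all WT hearts and SIRT1 KO 1 near the top. Without SIRT1 KO 1 that change was -0.35, and without SIRT1 KO 3 it was -0.10.

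*Cap2* minus *Cap1* changed by 0.22 (95% interval -0.06 to 0.49), the pair with the smallest exact permutation p, 0.114 (0.476 adjusted over the pairs). SIRT1 KO 1 and 4 were above all WT hearts, and SIRT1 KO 2 and 3 lay among them. The *Cap1* probe was dim, at 123 to 197 intensity units, and with normexp the change of this pair turned to -0.0428. *Lmod3* minus *Lmod2* changed by -0.02 (95% interval -0.58 to 0.54) and *Fhod3* minus *Fhod1* by -0.08 (95% interval -0.43 to 0.27). With 1 heart left out the latter ran from -0.17 (without WT 2) to -0.0069 (without WT 1), and it was -0.18 with normexp.

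**Figure D3:**
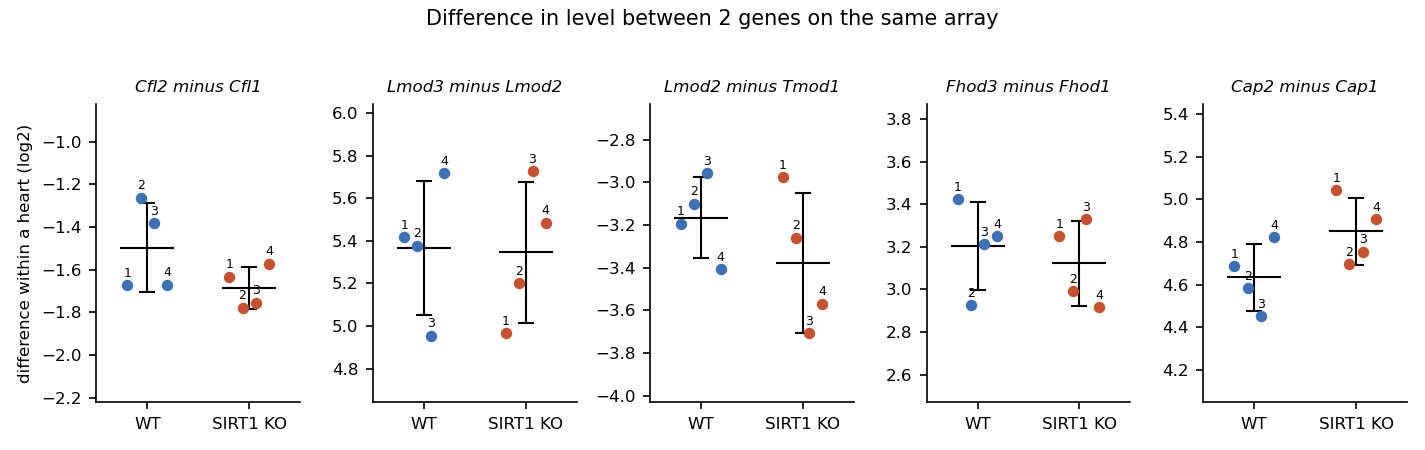
Difference in level between the genes of 5 pairs on the same array, in log2 units, for the 4 WT (blue) and 4 SIRT1 KO (red) hearts with mean ± SD (n = 4). Only the change between genotypes can be read, since the absolute difference also holds the probes' binding, and in no pair do the genotypes separate.

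The wider actin machinery was read from 85 other genes in 8 lists, of which 80 were tested on their brightest probe. Of these 80, 34 were higher and 46 lower, with a median of -0.02, and 3 were called: *Neb* fell, and *Ssh3* and *Inf2* rose. Over all 13592 genes tested in this way 4.58% were called, so 3 of 80 is near the background. At an unadjusted p under 0.05 there were 15 of 80, against 20.4% of all genes, and 12 of 80 had genotypes that did not overlap, against 14% of all genes.

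**Figure D4:**
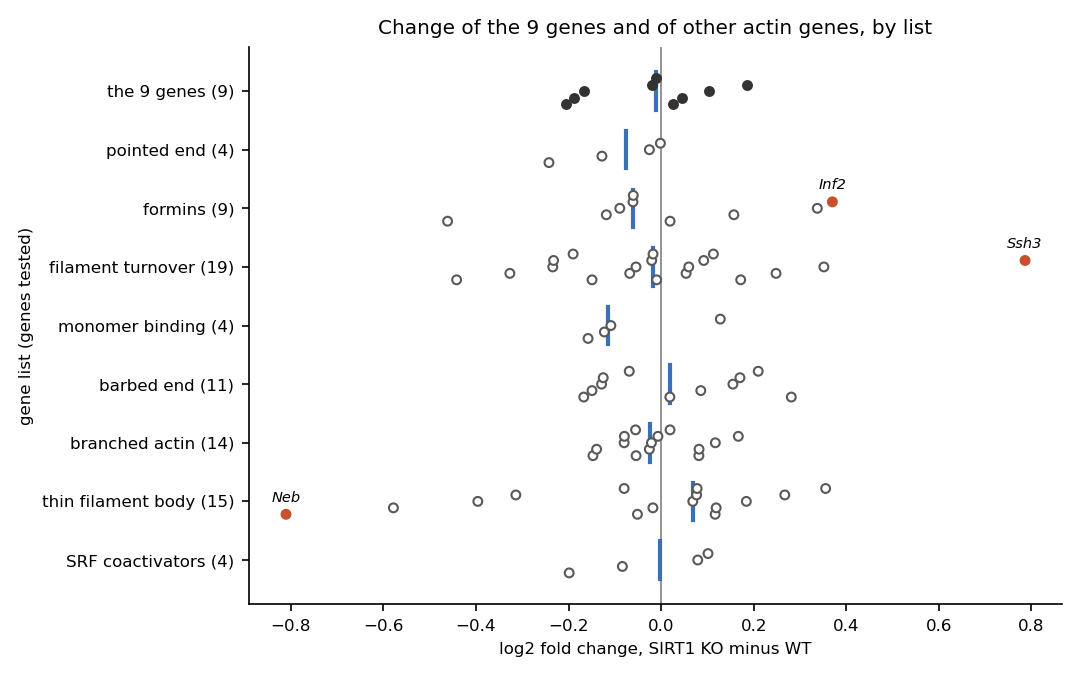
Log2 fold change (SIRT1 KO minus WT) of the 9 genes (filled black) and of the 80 tested genes of the 8 lists, by list, with the number tested in brackets. Filled red points passed an adjusted p of 0.05 in limma and are named, and blue bars are list medians.

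*Neb* encodes nebulin, the giant protein that runs along the thin filament and helps set its length in skeletal muscle, and which is scarce in heart. On its brightest probe (A_51_P495331) the levels were -3.35, -3.62, -3.76 and -3.77 in WT and -4.50, -4.32, -4.62 and -4.30 in SIRT1 KO. Every SIRT1 KO heart was below every WT heart, and the fitted log2 fold change was -0.81 (SE 0.12, adjusted p = 0.0062, limma). A second probe (A_51_P218535) separated the genotypes too, with levels from -4.13 to -3.88 in WT and from -4.81 to -4.48 in SIRT1 KO and a log2 fold change of -0.57 (adjusted p = 0.0133). The other 3 *Neb* probes were too dim to be tested. The fall was called in all 8 fits with 1 heart left out, between -0.86 and -0.72, but these signals were low, at most 101 intensity units, and after normexp neither probe was called, with fold changes of -0.21 (adjusted p = 0.1) on the brighter and -0.07 (adjusted p = 0.566) on the other.

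Markers of skeletal muscle, where nebulin is abundant, were read beside it. Of 8 such markers 5 were tested and none was called lower, while *Myog*, a myogenic transcription factor, was called higher (log2 fold change 0.52, adjusted p = 0.0291 from limma). Its probe was dim, at most 35.0 intensity units and well above background on 7 of 8 arrays, and the call was lost with normexp (adjusted p = 0.066) and after each other scaling or none (0.0572 to 0.197), and held in 3 of 8 fits with 1 heart left out. *Myh3* had a fold change of 0.47 (adjusted p = 0.0925), *Mylpf* of 0.07 (adjusted p = 0.789) and *Tnnt3* of -0.36 (adjusted p = 0.318, all from limma). *Myf5* was not above background on any array, and *Myod1* and *Actn3* were too dim to be tested. Summed, the 5 tested markers were at 92.3 to 110 in WT and 103 to 124 in SIRT1 KO hearts, a sum made up almost wholly by the *Myh8* probe, whose fold change was 0.22 (adjusted p = 0.204, limma).

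*Ssh3*, a member of the slingshot family of phosphatases that activate cofilin, had levels of -4.69, -4.94, -4.64 and -4.71 in WT and of -3.92, -3.95, -4.03 and -3.92 in SIRT1 KO. All SIRT1 KO hearts were above all WT hearts, by a log2 fold change of 0.79 (SE 0.083, adjusted p = 0.0020 from limma). The rise was called in all 8 fits with 1 heart left out (0.72 to 0.82) and under every other setting tried, with 0.46 after normexp as the smallest estimate. It was dim as well, at most 59.7 intensity units, though well above background on all 8 arrays. The related *Ssh2* had a fold change of 0.17 (adjusted p = 0.338), and the kinases that inactivate cofilin did not pass either: *Limk1* -0.01, *Limk2* -0.07, *Tesk1* 0.06 and *Tesk2* -0.02, with adjusted p of 0.664 or more.

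*Inf2*, a formin that both builds and severs filaments, was at 0.54, 0.42, 0.38 and 0.47 in WT and at 0.77, 0.90, 0.65 and 0.98 in SIRT1 KO. The genotypes did not overlap, and the log2 fold change was 0.37 (SE 0.088, adjusted p = 0.0484 from limma). That call was close to the threshold: it held in 1 of 8 fits with 1 heart left out, where the adjusted p reached 0.135, and it was lost with the replicate number as a block (adjusted p = 0.0658).

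**Figure D5:**
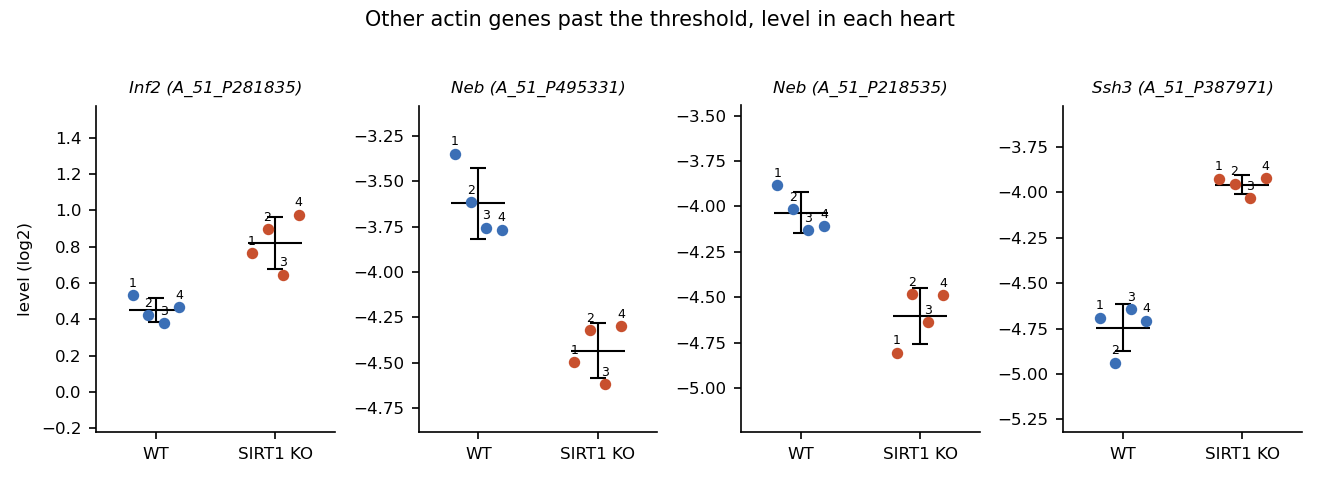
Level of *Inf2*, of the 2 tested *Neb* probes and of *Ssh3* in the 4 WT (blue) and 4 SIRT1 KO (red) hearts, as log2 signal minus the array's 75th percentile, with mean ± SD (n = 4). The genotypes do not overlap in any panel.

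The relatives of the members at the pointed end were all without a call: *Tmod2*, a mainly neuronal tropomodulin, had a fold change of -0.24 (adjusted p = 0.249), *Lmod1*, the smooth muscle leiomodin, -0.13, *Tmod3* -0.03 and *Tmod4* -0.0014. In the other formins, 9 of 11 were tested and 4 were higher and 5 lower. *Diaph1*, which elongates unbranched filaments, had a fold change of 0.34 (adjusted p = 0.0627 from limma) with no overlap between genotypes, and *Diaph3* of -0.46 (adjusted p = 0.112, and 0.0469 with the replicate number as a block), also without overlap.

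Of 21 genes of filament turnover 19 were tested, 8 higher and 11 lower, with *Ssh3* as the only call. *Twf2*, a twinfilin that binds monomers and depolymerizes filaments, had the next smallest p there, with a fold change of -0.33 on the brighter probe (adjusted p = 0.0716 from limma) and -0.34 on the other (adjusted p = 0.0521), and no overlap on either. The 4 monomer-binding genes had a median of -0.12 and no call, with -0.16 for *Tmsb4x*, the thymosin that sequesters actin, and -0.12 for *Pfn1*, the profilin that feeds it to growing ends.

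Capping and severing at the barbed end was covered by 11 genes, 6 higher and 5 lower, none called. *Gsn*, gelsolin, which severs and caps, had a fold change of 0.28 (adjusted p = 0.0834) without overlap between genotypes. *Add3*, an adducin, had opposite signs on its probes, -0.17 on the brighter and 0.20 on the other, and neither was called. The branched-actin list, the Arp2/3 complex and its activators, had 14 of 15 genes tested, 5 higher and 9 lower, from -0.15 (*Actr2*) to 0.17 (*Wasf1*, a WAVE subunit that activates the complex), with no call. *Arpc1a*, a subunit of the complex, had a fold change of -0.14 (adjusted p = 0.372, limma).

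Among 15 genes of the thin filament itself, 8 were higher and 7 lower, with a median of 0.07. In 4 of the 15 the genotypes did not overlap, against 14% of all genes. At an unadjusted p under 0.05 (limma) there were 6, against 20.4% of all genes. Besides *Neb*, the other 3 without overlap were not called. They were *Nebl*, nebulette, the cardiac relative of nebulin (-0.31, adjusted p = 0.0893), *Xirp2*, a Xin repeat protein that binds actin (-0.58, adjusted p = 0.119), and *Acta1*, skeletal alpha-actin (0.36, adjusted p = 0.0912, limma). *Klhl40*, which stabilizes LMOD3 and nebulin, and *Klhl41* had fold changes of 0.12 and -0.40 and were not called. *Srf*, the factor that drives many actin genes, and its coactivators did not pass the test either: *Srf* 0.08, *Mrtfa* 0.10, *Mrtfb* -0.20 and *Myocd* -0.08. For *Mrtfb* the genotypes did not overlap, on a dim probe of at most 86.6 intensity units (adjusted p = 0.174, limma). *Mrtfb* was called after quantile normalization (adjusted p = 0.0422, limma), after median scaling (0.0469) and with no scaling (0.0180).

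Over the 8 hearts the gene whose levels followed a member most closely, chosen by the highest Pearson r among 13533 genes, was a different one for each of the 8 members given here. These were *Vamp4* for *Lmod2* (r = 0.97), *Ankrd34a* for *Lmod3* (0.97), *Acvr2a* for *Tmod1* (0.97), *Rbbp6* for *Fhod1* (0.98), *Sec31b* for *Fhod3* (0.97), *Tecr* for *Cfl1* (0.98), *Orai2* for *Cfl2* (0.96) and *Morn2* for *Wdr1* (0.97). None of these is a listed actin gene, and between 6 and 68 genes per member had an r above 0.9. With 8 arrays and so many genes such values describe these hearts and carry no test.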

How the data were processed

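The authors hybridized Cy3-labeled cRNA, made from 500 ng of total RNA, to one-color Agilent mouse arrays and deposited the spot intensities of each array, background-subtracted by Agilent's Feature Extraction software (12.0.0.7 per the file headers), with no scaling between arrays. The deposited value table equals these intensities in 100% of spots and was not used further.

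Here log2 intensity minus the array's 75th percentile was averaged over the spots of a probe, without control and outlier spots, for 41174 probes. Accessions were matched to RefSeq gene names of GRCm38.p6, which named 28236 probes (68.6%); the array's own build differs, so no coordinates are given. A probe entered the test when it was well above background on 4 or more of the 8 arrays (25616 did), with limma 3.58.1 in R 4.3.3 and Benjamini-Hochberg adjustment at 0.05, after a test on simulated data; the brightest probe reports a gene. For pairs of genes an exact permutation test, two-sided, was used. The methods' analysis of variance, other scalings, background corrections and filters, array weights, a replicate block and leaving out each array were alternatives. Python 3.11.15 with pandas 2.3.3, numpy 2.4.6 and matplotlib 3.10.9 made the tables and plots.

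The members and the lists were chosen with earlier results of these data known. Named were all members, the list genes past the threshold and the 2 of smallest p per list, the gene most like each member (that of *Cap2* is not reported here), and *Sirt1*; the other genes were named after their values were seen. The number of arrays limits the precision, and p-values measure the spread between these hearts. The paper's gene lists were not used.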

Additional observations from a re-analysis of the deposited data

Results flagged for a closer look

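In 1 of the 38 probe and genotype groups of 4 hearts examined, 1 heart stood apart by Dixon's test, which chance does in about 1 of 20 groups. On the brighter *Cap2* probe SIRT1 KO 4 had a level of 2.09 and the nearest other SIRT1 KO heart 2.21, so the gap made up 0.881 of the range of the group. The level of SIRT1 KO 4 lay inside the WT range.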

How the results depend on the processing

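No member probe was called under any alternative tried, left-out hearts included, except with no scaling between arrays, where 4 probes and 2 genes on their brightest probe were called. The 8 fits without 1 heart each gave 0 member calls. The count over all probes (1250) was 2566 with normexp on the median signal, 6347 with no scaling, 546 with the methods' analysis of variance, 2130 with array weights, 2275 at an adjusted p of 0.1, and 657 to 1825 with 1 heart left out. The count of list genes (3) was 7 with normexp, 8 after median scaling, 25 with no scaling, 7 with array weights, 8 at an adjusted p of 0.1, and 2 to 5 with 1 heart left out.

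The sign of 24 of 164 recomputed member fold changes turned, 7 of them under median scaling or no scaling, which shift all probes of an array alike. *Tmod1* was -0.0828 after median scaling, -0.174 with no scaling, -0.0211 with array weights and -0.0005 without WT 2, within -0.0005 to 0.114 with 1 heart left out. *Fhod1* was -0.0349 with no scaling. *Fhod3* was -0.0242 after median scaling, -0.115 with no scaling and -0.0018 without WT 2 (left-out range to 0.158). *Cap2* was -0.105 with normexp, -0.103 after median scaling, -0.194 with no scaling, -0.0387 without WT 3 (left-out range to 0.074) and -0.0433 as the mean of its probes. *Cfl1* was 0.0037 with normexp, 0.0035 after quantile normalization, 0.0137 after cyclic loess, 0.0106 without WT 1 and 0.0465 without SIRT1 KO 4 (left-out range from -0.0821). *Wdr1* was 0.0274 with normexp, 0.0131 after quantile normalization, 0.0227 after cyclic loess, 0.0089 with array weights, 0.0388 without WT 1 and 0.057 without SIRT1 KO 4 (left-out range from -0.0712). The change of *Lmod3* minus *Lmod2* was 0.0187 after quantile normalization and 0.0124 after cyclic loess, and -0.158 to 0.105 with 1 heart left out. That of *Cap2* minus *Cap1* was -0.0428 with normexp. The cause of these changes was not tested.

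*Inf2* lost its call in 13 of 18 alternatives. With the replicate number as a replicate block 1185 probes, 0 member probes and 3 list genes were called, with *Diaph3* (adjusted p = 0.0469, limma) in place of *Inf2*. The correlation of same-numbered hearts was 0.20, 0.21, 0.06 and 0.14. Since the labels give replicate numbers and name no pairs, the main fits and the permutation tests left the numbers out. Every heart correlated best with its own number, a hint from the data and not from the labels. Normexp on the median signal was chosen after seeing the data, because the mean signal that was planned is not in the files used here and was not run. No slide block could be fitted, since each slide holds 1 genotype.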
